A study of Mus musculus with 4 samples.

Results

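MicroRNAs that are typical of blood vessels and connective tissue were examined in mouse activated T cells. The probes were those whose ID, without its prefix, is the number of miR-126, miR-126*, miR-143, miR-145, miR-199a, miR-199a* or miR-214. Of these 7 IDs, 6 had a probe each (1org-126, 1org-126*, 1org-143, 1org-145, 2org-199a and 2org-214) and that of miR-199a* had none, which left 6 of the 171 miRNA probes among the 178 probes of the value table. The table also held 1org-199-s, 1org-199-as and 2org-199b, whose names fall outside the rule and which are described separately.

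The study transduced activated T cells with Foxp3, the transcription factor of regulatory T cells, and compared them with activated T cells that received a control vector. Both RNAs of a time point were hybridised together on 2-colour arrays, as a dye-exchanged set of 2 arrays for 72 h and another for 96 h. Arrays are named below by time point and by the dye of the Foxp3 RNA, such as the 96 h Foxp3-Cy5 array. Control-vector RNA of the same time point was thus the reference on all 4 arrays. The strain, sex and age of the mice, the T cell subset, the mode of activation and the vector are not given in the sources used here. The table holds 1 log ratio per probe and array and no intensity, so levels are unknown. Neither the labelled T cell identity nor the presence of these miRNAs in either RNA could be checked against marker levels.

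MiR-126 and its partner strand miR-126* are cut from 1 hairpin in an intron of Egfl7, a gene of endothelial cells, and miR-126 sustains vascular growth factor signalling there. MiR-143 and miR-145 are made from 1 transcript in smooth muscle and other mesenchymal cells and help to set the contractile state of smooth muscle. MiR-199a and miR-214 are made from the long non-coding RNA Dnm3os in mesenchymal tissues, with a further miR-199a gene elsewhere, and are known from fibroblasts and developing skeleton.

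The sequences are shown because the probe names point to single arms of shared hairpins, and the results below compare partners from 1 hairpin or transcript. They are from RefSeq on GRCm38.p6 and were matched by miRNA name, with the arm taken from the older naming without an asterisk. The table of values gives no probe sequence. Of the 6 probes, 3 matched a mature sequence, and capitals mark the seed, bases 2 to 8, which pairs with target mRNAs.
miR-126a-3p, probe 1org-126: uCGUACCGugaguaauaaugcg
miR-199a-5p, probe 2org-199a: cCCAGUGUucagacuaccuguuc
miR-199a-3p, the other arm: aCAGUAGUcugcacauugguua
miR-214-3p, probe 2org-214: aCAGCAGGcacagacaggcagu

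The 3 seeds of the measured arms differ from each other, so these 3 do not share a seed family. Among the RefSeq mouse mature sequences used here, no other name had the seed of miR-126a-3p or of miR-199a-5p. These sequences lack some mature arms, so miRNAs with the same seed can have been missed. The seed of miR-214-3p was shared with miR-761 and that of miR-199a-3p with miR-199b-3p.

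The hairpins follow, with the arms that RefSeq lists as mature in capitals.
Mir126a: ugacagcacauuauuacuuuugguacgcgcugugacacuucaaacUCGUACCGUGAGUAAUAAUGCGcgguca
Mir199a-2: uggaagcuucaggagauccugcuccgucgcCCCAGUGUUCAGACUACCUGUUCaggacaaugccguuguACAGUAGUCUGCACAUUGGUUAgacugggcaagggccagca
Mir214: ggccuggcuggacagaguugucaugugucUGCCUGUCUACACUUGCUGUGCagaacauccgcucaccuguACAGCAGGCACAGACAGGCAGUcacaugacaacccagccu
Mir126a lies at chr2:26591357-26591429 on the plus strand, inside the span of Egfl7. Mir199a-2, at chr1:162217814-162217923, and Mir214, at chr1:162223368-162223477, lie on the plus strand with 5444 bases between them, inside the spans of Dnm3os and Dnm3. Mir199a-1, at chr9:21496495-21496564 on the minus strand inside the span of Dnm2, encodes the same 2 arms, so a miR-199a probe cannot tell the genes apart.

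The direction of the deposited ratios was not settled. Values were read as Cy5 over Cy3, channel 2 over channel 1, and those of the Foxp3-Cy3 arrays were multiplied by -1, which is called turning here. Positive turned values are called likely higher with Foxp3 below, and negative ones likely lower. These terms name this reading of the sign and do not mean that it is the more probable one. The basis of this reading is the channel order alone. Over 171 probes, the deposited values of the 72 h arrays had r = 0.66 and those of the 96 h arrays r = -0.12. If the samples set the ratios, exchanged dyes should give a negative value for unturned ratios and a positive one for ratios turned before deposit. The sample titles name Foxp3 before control on every array, which does not settle the direction. Results are also given under the other reading, in which the authors had turned the ratios themselves before deposit (called already turned). Fold changes assume base 2, which no source states. Array medians before turning were -0.59 and -0.83 at 72 h and, at 96 h, 1.27 on the Foxp3-Cy5 array, which is far above the others, and 0.02.

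On the arrays themselves, 5 of the 6 probes had a deposited value below 0 on 3 arrays and above 0 on the 96 h Foxp3-Cy5 array. The same signs were found for 45% of all miRNA probes. The exception was 2org-214, which lay above 0 on the 72 h Foxp3-Cy5 array as well. Against the medians of the arrays, 5 of 6 probes lay above the median on the 96 h Foxp3-Cy5 array, where 49.7% of all probes did. On the 96 h Foxp3-Cy3 array, none of the 6 did, 1 did on the 72 h Foxp3-Cy3 array and 2 on the 72 h Foxp3-Cy5 array.

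**Figure D1:**
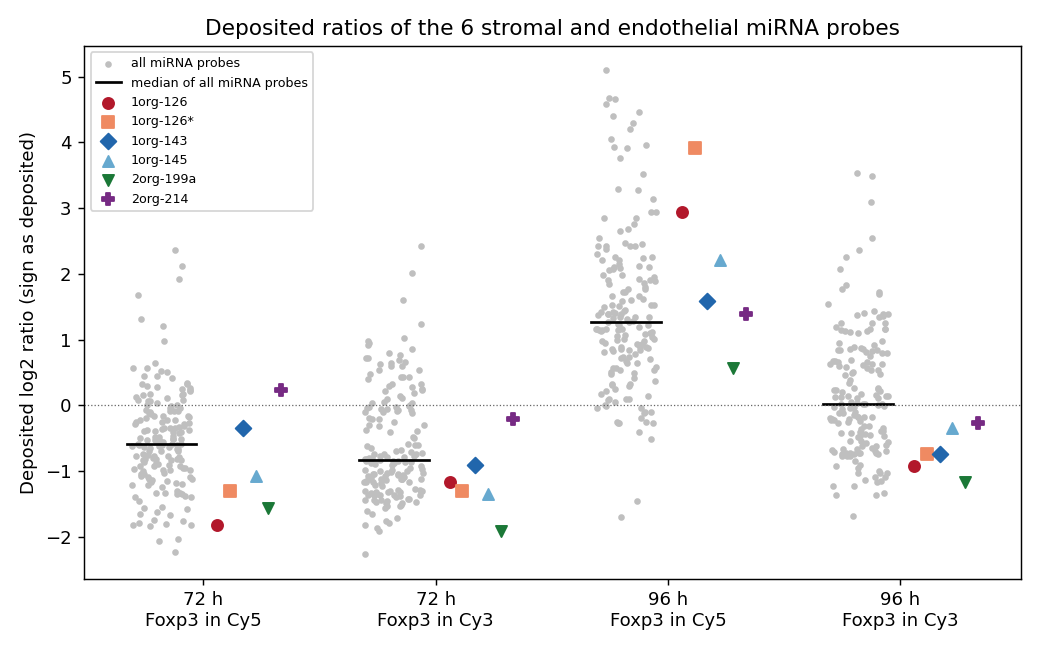
Deposited log2 ratios, sign as deposited (vertical axis), on the 4 arrays (horizontal axis), with the 6 stromal and endothelial miRNA probes as coloured symbols, all 171 miRNA probes as grey points spread sideways at random, and black lines at their medians. Apart from 2org-199a, the 6 probes lie above the median of 1.27 on the 96 h Foxp3-Cy5 array, and all 6 lie below the median of 0.02 on the 96 h Foxp3-Cy3 array.

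Probe 1org-126, for the endothelial miR-126, had deposited values of -1.82 (Foxp3 in Cy5) and -1.17 (Foxp3 in Cy3) at 72 h and of 2.94 and -0.92 at 96 h. At 72 h both arrays were low with 1 deposited sign, so the turned values oppose each other, whereas at 96 h the sign changed with the dyes. The turned means were -0.32 at 72 h and 1.93 at 96 h, the latter 3.81-fold likely higher and the ninth highest of all probes. The turned values of the time points overlapped, because 1.17 at 72 h exceeded 0.92 at 96 h.

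Probe 1org-126*, for the partner strand, had deposited values of -1.31 (Foxp3 in Cy5) and -1.31 (Foxp3 in Cy3) at 72 h and of 3.91 and -0.74 at 96 h. The 72 h arrays were equal to 2 decimals with the sign not following the dyes, so that the turned mean was 0.00. At 96 h the turned mean was 2.33, or 5.01-fold likely higher, the highest of the 6 probes and rank 2 of 171. Most of it came from 1 array, on which the probe ranked 12 from the top.

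Probe 1org-143, for the smooth muscle miR-143 and listed as Mirn143, now Mir143, by the platform annotation, which named no other of the 6, had deposited values of -0.34 and -0.90 at 72 h and of 1.59 and -0.74 at 96 h, with Foxp3 in Cy5 given first. The turned means were 0.28 and 1.17, the latter 2.25-fold likely higher. Its 2 turned arrays at 96 h, 1.59 and 0.74, lay nearer to each other than those of miR-126.

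Probe 1org-145, for the miR-145 made from the same transcript, had deposited values of -1.07 and -1.35 at 72 h and of 2.20 and -0.34 at 96 h in the same order. The turned means were 0.14 and 1.27, the latter 2.42-fold likely higher. The 72 h Foxp3-Cy3 array, at 1.35 after turning, lay between the 96 h arrays.

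Probe 2org-199a, for the mesenchymal miR-199a, had deposited values of -1.56 and -1.91 at 72 h and of 0.57 and -1.17 at 96 h in the same order. It was the one of the 6 that lay below the array median on all 4 arrays, at rank 2 from the bottom on the 72 h Foxp3-Cy3 array and at rank 7 from the bottom on the 96 h Foxp3-Cy3 array. The turned means were 0.17 and 0.87, the latter 1.83-fold likely higher. At 96 h its larger turned value, 1.17, was on the array with Foxp3 in Cy3, the reverse of the other 5 probes.

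Probe 2org-214, for the miR-214 encoded beside miR-199a, had deposited values of 0.23 and -0.21 at 72 h and of 1.39 and -0.27 at 96 h in the same order. It was the one probe of the 6 with 1 sign after turning on all 4 arrays, as 7.6% of all probes had. The turned means were 0.22 and 0.83, the latter 1.77-fold likely higher and the lowest of the 6. Its turned arrays of the 2 time points did not overlap, although 0.27 at 96 h was close to 0.23 at 72 h.

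At 72 h, the question was whether the 6 miRNAs differed with Foxp3 in both dye orientations. None of the 6 passed 1.5-fold with 1 sign on both arrays, against 7.6% of all miRNA probes. Their turned means ran from -0.32 to 0.28 with a median of 0.16, against 0.07 over all 171 probes. After turning, 1 of the 6, 2org-214, had 1 sign on both arrays, against 28.1% of all probes. With 2 arrays, this is the same as a part that changed sign with the dyes exceeding the part that kept it. Each time point counts as 1 replicate, and these values have no test. In RNA of a whole culture, fewer cells of a type and less RNA per cell cannot be told apart.

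At 96 h, all 6 probes were past 1.5-fold on the likely higher side with 1 sign on both arrays, against 46.2% of all miRNA probes. Their turned means ran from 0.83 to 2.33 with a median of 1.22, against a median of 0.80 over all 171 probes. In order, miR-126* and miR-126 stood highest, miR-145 and miR-143 followed, and miR-199a and miR-214 were lowest. Each neighbouring pair in this order had overlapping arrays, and in the already turned reading miR-214, at 0.56, lay above miR-143, at 0.42. Past 2-fold were 1org-126, 1org-126*, 1org-143 and 1org-145, 4 of 6 against 26.9% of all probes. Regardless of fold, 56.1% of all probes had 1 sign on both arrays after turning. For all of these, the 6 included, the part that changed sign with the dyes is by definition the larger.

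These values depended on the centring of the arrays. Subtracting its miRNA median from each array lowered the turned ratios of every probe by 0.12 at 72 h and 0.62 at 96 h, and centring on the U6 and tRNA probes lowered them by 0.11 at 72 h and raised them by 0.16 at 96 h. With the miRNA medians, 3 of 6 were still past 1.5-fold likely higher at 96 h, against 17.5% of all probes. These were 1org-126 at 1.31, 1org-126* at 1.70 and 1org-145 at 0.65. Probe 1org-143 then stood at 0.54 and 2org-214 at 0.20. The 96 h arrays of 2org-199a then had opposite signs, -0.70 and 1.19. Centred on U6 and tRNA, all 6 passed, against 59.1% of all probes, with means from 0.99 to 2.49. At 72 h, 1org-126* was at -0.12 and -0.11 with these centrings instead of 0.00.

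**Figure D2:**
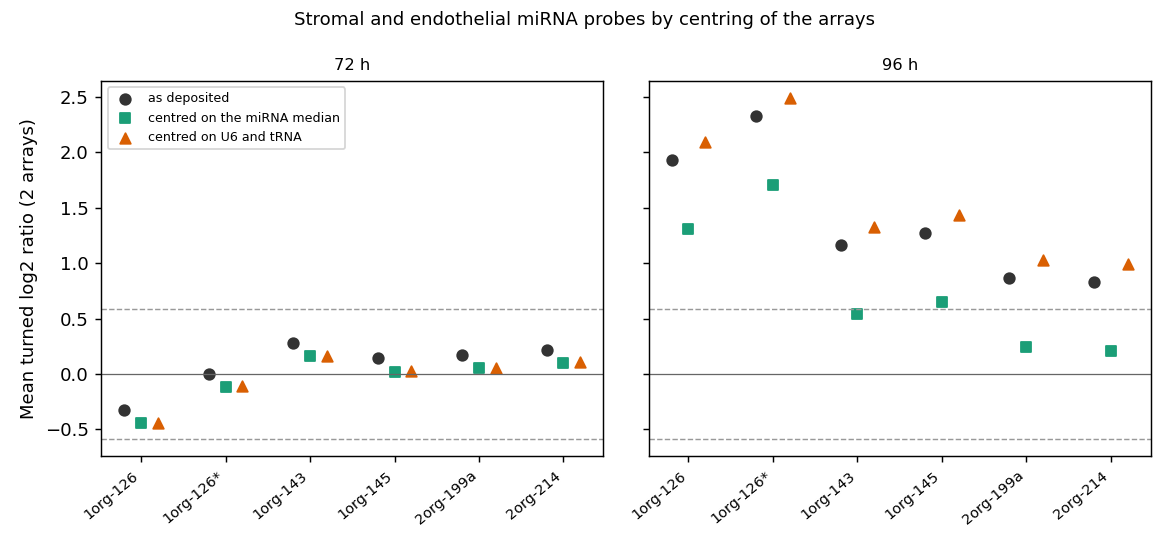
Mean turned log2 ratio of the 2 arrays of a time point (vertical axis) for each of the 6 probes (horizontal axis) at 72 h and 96 h, under 3 centrings; dashed lines mark 1.5-fold. All 72 h means lie between the dashed lines, and at 96 h the means centred on the miRNA median are the lowest, with 3 of 6 above the upper line.

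In the already turned reading, the account of the time points was exchanged. At 72 h, 5 of the 6 were then past 1.5-fold lower with 1 sign on both arrays, against 53.2% of all probes. Their means were -1.49 for 1org-126, -1.31 for 1org-126*, -0.62 for 1org-143, -1.21 for 1org-145 and -1.74 for 2org-199a, while 2org-214 was at 0.01. At 96 h, none of the 6 had 1 sign on both arrays, against 43.9% of all probes, and the means ran from -0.30 for 2org-199a to 1.58 for 1org-126*.

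**Figure D3:**
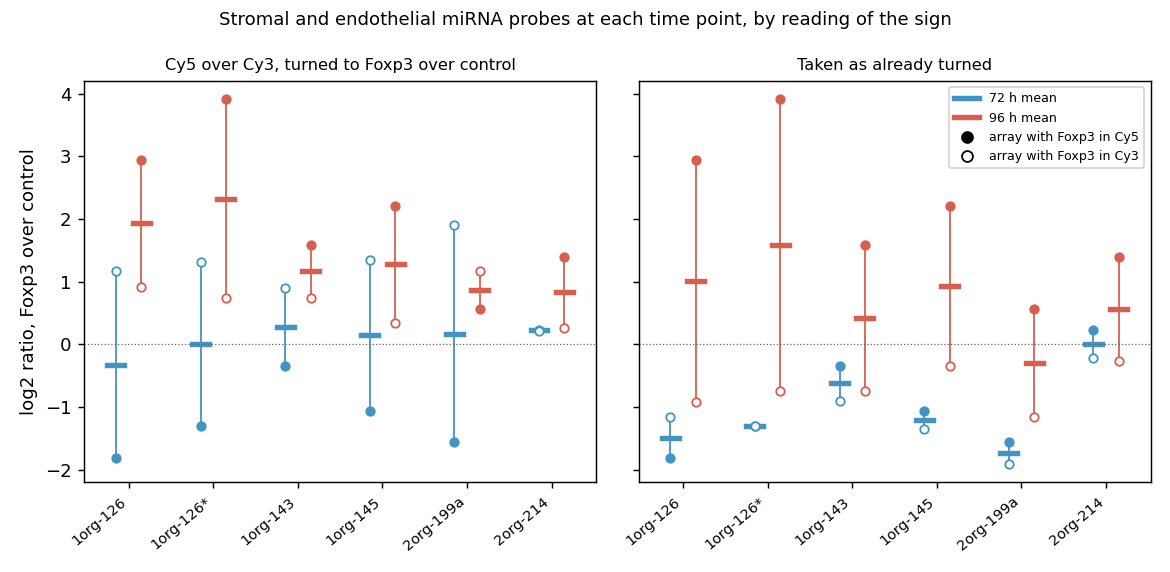
Log2 ratio of Foxp3 over control (vertical axis) for each of the 6 probes (horizontal axis), read as Cy5 over Cy3 and turned (left) or taken as already turned (right). Points are single arrays, filled for Foxp3-Cy5 and open for Foxp3-Cy3 arrays, joined by thin lines, and thick bars are the means of 72 h (blue) and 96 h (red); the 96 h bar lies above the 72 h bar for all 6 probes in both panels.

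Over both time points, the question was which of the 6 differed with Foxp3 beyond the spread between the time points. Mean turned log2 ratios were 0.80 ± 1.59 (SD, n = 2 time points) for 1org-126 and 1.16 ± 1.64 for 1org-126*. They were 0.72 ± 0.63 for 1org-143 and 0.71 ± 0.80 for 1org-145. For 2org-199a and 2org-214 they were 0.52 ± 0.49 and 0.52 ± 0.43. The SD exceeded the mean for both strands of miR-126 and for miR-145. These means rested on single arrays. Without the 72 h Foxp3-Cy5 array they were 1.55 for 1org-126, 1.82 for 1org-126*, 1.04 for 1org-143, 1.31 for 1org-145 and 1.39 for 2org-199a. Without the 72 h Foxp3-Cy3 array they were 0.06, 0.51, 0.41, 0.10 and -0.35 in the same order. Without the 96 h Foxp3-Cy5 array, 1org-126 was at 0.30, 1org-126* at 0.37, 1org-145 at 0.24 and 2org-214 at 0.24. Without the 96 h Foxp3-Cy3 array, 1org-126 was at 1.31, 1org-126* at 1.96, 1org-145 at 1.17, 2org-199a at 0.37 and 2org-214 at 0.80.

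None of the 6 passed limma's adjusted p of 0.05, as 0% of the 171 probes did, while 16 probes had an unadjusted limma p under 0.05. The lowest among the 6 was that of 1org-126*, with limma's adjusted p at 0.307 (unadjusted 0.0161, 95% confidence interval of the mean 0.22 to 2.11, above 0 on 3 of 4 turned arrays). Limma's adjusted p for the other 5 was 0.545 to 0.580. The fit gave every probe the pooled standard error of 0.479, which is below the probe's own for both strands of miR-126 and for miR-145. Without the 72 h Foxp3-Cy5 array, limma called 5 of the 6, all but 2org-214, but it then called 94 of 171 probes (55%). That fit rests on a single 72 h array, on which a dye effect does not cancel. In the already turned reading limma called none of the 6 and 1.75% of all probes. The adjusted p from limma was 0.998 for each of the 6, with means of -0.24 for 1org-126, 0.14 for 1org-126*, -0.10 for 1org-143, -0.14 for 1org-145, -1.02 for 2org-199a and 0.28 for 2org-214.

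The time points were then set against each other. The 96 h mean was above the 72 h mean for all 6 probes in both readings and with both centrings, but so it was for 77.2% of all probes as deposited, for 56.7% centred on the miRNA medians, for 90.1% centred on U6 and tRNA and for 95.9% in the already turned reading. The differences in turned log2 ratio were 2.25 for 1org-126, 2.32 for 1org-126*, 0.89 for 1org-143, 1.13 for 1org-145, 0.70 for 2org-199a and 0.61 for 2org-214. Centred on the miRNA medians, those of both miR-126 strands were 1.75 and 1.82 and those of 2org-199a and 2org-214 were 0.19 and 0.10.

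Of the 6, 2org-214 alone had 72 h and 96 h arrays that did not overlap and means at least 1.5-fold apart, against 7.02% of all probes. With the miRNA medians as centre it no longer did, and 1org-126 and 1org-126* did instead, against 24% of all probes. Centred on U6 and tRNA, 5 of 6 did, all but 2org-199a, against 41.5%. In the already turned reading 4 of 6 did, all but 1org-143 and 2org-214, against 67.8%. The interaction of Foxp3 and time in limma called none of the 6, with limma's adjusted p at 0.991 for each, and 0% of all probes. For 1org-126* the 95% confidence interval of the difference ran from -0.76 to 5.41 and for 2org-214 from -2.48 to 3.69. The spread in this fit is the change of the dye part of the ratio between the time points, pooled over probes. No replicate cultures enter it, so the intervals and p-values do not measure the spread between cultures. The design could thus not separate no difference from a large one.

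Partners from 1 hairpin or transcript were then compared through the mean absolute difference of their deposited log2 ratios over the 4 arrays. Neither the centring of an array nor the reading of the sign alters this measure. Over the 15 pairs of the 6 probes its median was 0.878, against 0.913 over all 14535 pairs of miRNA probes. As a group the 6 were thus about as far apart as any probes.

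The strands of miR-126 were the nearest pair of the 6, at 0.449. Probe 1org-126* was the tenth nearest of 170 other probes to 1org-126, and 1org-126 was at rank 8 of 170 from 1org-126*, but at rank 25 without the 96 h Foxp3-Cy5 array. Their largest gap was on the 96 h Foxp3-Cy5 array, at 2.94 against 3.91. MiR-143 and miR-145 were 0.547 apart, and 1org-145 was at rank 66 of 170 from 1org-143. MiR-199a and miR-214 were 1.30 apart, and 2org-214 was at rank 105 of 170 from 2org-199a, beyond the median of 1.17. They differed most at 72 h, where miR-214 was near 0 and miR-199a among the lowest probes.

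**Figure D4:**
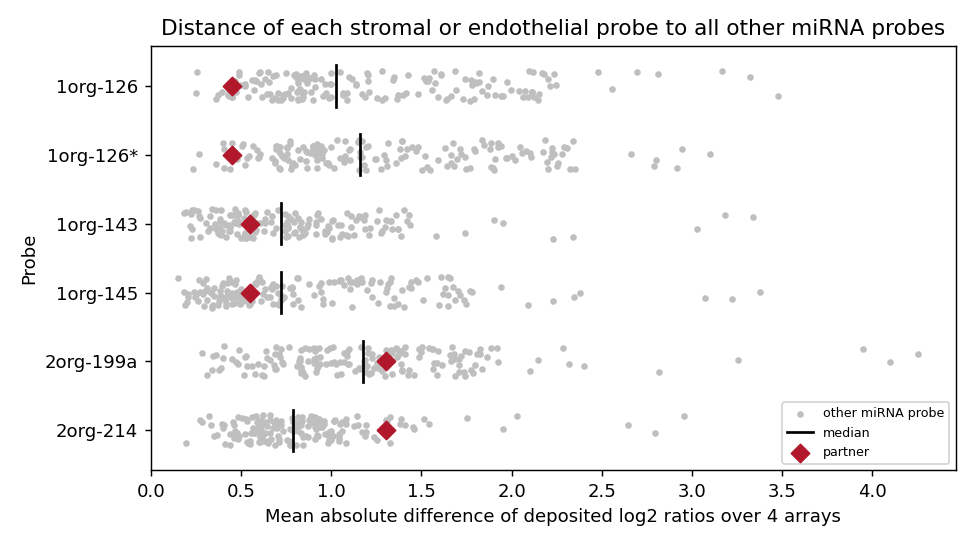
Mean absolute difference of deposited log2 ratios over the 4 arrays (horizontal axis) between each of the 6 probes (vertical axis) and the 170 other miRNA probes, shown as grey points spread up and down at random, with black lines at the medians. Red diamonds mark the partner from the same hairpin or transcript, which, over the 4 arrays, is among the 10 nearest for both strands of miR-126 and beyond the median for 2org-199a and 2org-214.

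The nearest probes by this measure, over 4 arrays, were 2org-211, 1org-141 and 2org-216 for 1org-126, at 0.252, 0.254 and 0.361. For 1org-126* they were 1org-192, 2org-216 and 1org-292-as, at 0.231, 0.268 and 0.363. For 1org-143 they were 2org-105, 1org-182 and 1org-292-s, at 0.186, 0.195 and 0.218, and for 1org-145 they were 1org-125b, 1org-148 and 1org-152, at 0.151, 0.185 and 0.187. For 2org-199a they were 1org-122a, 1org-302 and 1org-9*, at 0.282, 0.312 and 0.337, and for 2org-214 they were 1org-183, 1org-297 and 1org-24, at 0.193, 0.271 and 0.281. None of these neighbours was another of the 6, and probe 2org-216 was the one near both strands of miR-126.

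The probes named for miR-199 outside the rule differed among themselves. Probe 1org-199-as had deposited values of -0.29 and -0.74 at 72 h and of 3.14 and -1.16 at 96 h, with Foxp3 in Cy5 first, which gave turned means of 0.22 and 2.15. Probe 1org-199-s had deposited values of -0.53, -1.20, 1.96 and 0.06 in the same order, and 2org-199b had -1.79, -1.31, 2.24 and -0.06. At 96 h, 1org-199-as was 4.42-fold likely higher and its sign changed with the dyes, whereas 1org-199-s lay above 0 on both arrays as deposited. The files do not say which arm or gene the letters s and as stand for, so miR-199a* may have been measured under such a name. None of the 3 was close to 2org-199a, the nearest being 2org-199b at rank 52 of 170.

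Other miRNAs known from stromal or endothelial cells were examined by 13 further IDs, of which 9 had a probe. At 96 h, 6 of 9 were past 1.5-fold likely higher and 2 of 9 likely lower, against 46.2% and 5.26% of all probes, with a median of 1.08. Centred on the miRNA medians, 2 of 9 were past it likely higher and 2 of 9 likely lower, against 17.5% and 25.1% of all probes. As deposited, those likely higher included 1org-99a at 1.58, 1org-125b at 1.23 and 2org-100 at 1.11, while 2org-221 and 2org-222, which endothelial cells and activated T cells both hold, stood at -1.85 and -2.12. At 72 h, 1 was past 1.5-fold likely higher, 1org-22 at 0.93, against 2.34% of all probes. Likely lower were 2, 2org-222 at -0.90 and 2org-221 at -0.60, against 5.26% of all probes. Centred on the miRNA medians, 1 of 9 was past it each way at 72 h, against 1.17% higher and 3.51% lower. Limma called none of the 9. In the already turned reading none of the 9 passed at 96 h, against 33.9% of all probes, and 6 of 9 passed on the lower side at 72 h, against 53.2%.

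Markers of other cell types were set beside these values, where 46.2% of all probes were past 1.5-fold likely higher with 1 sign on both arrays at 96 h. Of the 7 lymphoid IDs 6 had a probe. Their turned means ran from -0.83 to 0.96 at 72 h and from -0.82 to 0.47 at 96 h, with medians of 0.09 and -0.44. At 72 h, 2 of 6 were past 1.5-fold likely higher and 1 of 6 likely lower, against 2.34% and 5.26% of all probes. At 96 h, none of 6 was past it likely higher and 3 of 6 likely lower, against 5.26% lower. Centred on the miRNA medians, 4 of 6 were then likely lower, against 25.1%, and none likely higher. Centred on U6 and tRNA, 1 of 6 was past it each way, against 4.68% lower and 59.1% higher. The myeloid 2org-223 went from -0.21 to 1.83, and the erythroid 1org-144, the one of 2 erythroid IDs with a probe, from 0.17 to 1.93, both past 1.5-fold. The 6 epithelial probes of 7 IDs ran from -0.21 to 0.16 at 72 h and from 0.56 to 1.73 at 96 h, where 2 of 6 passed. The muscle 1org-206, 1 of 4 IDs, was at 0.55 and 1.47 and did not pass, with opposite signs on the 96 h arrays after turning. IDs had to match exactly, so 1org-1b, 1org-1d and 1org-133 were not counted as muscle probes, nor 1org-181 as lymphoid. Their turned means at 72 h and 96 h were 0.15 and 0.92, 0.20 and 0.90, -0.03 and 0.82, and -0.11 and 0.35, in that order. The liver 1org-122a was at 0.10 and 0.89 and passed at 96 h as deposited, but with neither centring. Of the epithelial probes, 1 of 6 passed likely higher at 96 h centred on the miRNA medians, against 17.5% of all probes. Centred on U6 and tRNA, 3 of 6 did, against 59.1%. Probes 2org-223 and 1org-144 passed with both centrings. The already turned reading gave other values. The lymphoid medians were then 0.03 at 72 h and 0.58 at 96 h, and the epithelial medians 0.31 and 2.70. At 72 h, 3 of 6 epithelial probes were then past 1.5-fold higher and 3 of 6 lower, against 2.92% and 53.2% of all probes. At 96 h, 4 of 6 were past it higher, up to 4.10, against 33.9%. In that reading 2org-223 was at -0.99 and 0.47, 1org-144 at -0.93 and 0.83, 1org-206 at 0.77 and 2.83, and 1org-122a at -1.72 and -0.79. With no intensities, the part of other cell types or of signal near background in these ratios was not tested.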

How the data were processed

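The authors deposited 1 log2 ratio per probe and array for 178 probes on 4 arrays (2 time points with 2 arrays of exchanged dyes each). Base 2 was assumed, and natural logs could not be told apart from it. Dyes and RNAs are per the labels. For the scanner, background correction and centring, the sources used here give nothing, and they do not settle the direction. The probes and lists were chosen with earlier results of these data known. The 7 control RNA probes were left out of tests. Turned values of a time point were averaged, since its arrays share 2 RNAs, so n was 2. No label says that the time points came from separate cultures, so p-values measure only the spread between these samples, which may be technical, and the number of arrays limits the precision.

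Tests were limma 3.58.1 in R 4.3.3 over 171 miRNA probes, with Benjamini-Hochberg adjustment at 0.05. They were an intercept fit on the 2 averages and a Foxp3 by time term with a dye term over the 4 arrays. The intercept fit had 1 residual degree of freedom per probe. As deposited, both fits gave all probes 1 pooled variance, and their p-values and intervals rest on it. Both tests were run on simulated data without shifts between arrays, which checks the code and not how the tests behave on these arrays. Counts used 1.5-fold with 1 sign on both arrays, or no overlap between the time points. Named probes were the 6, their 3 nearest neighbours each, and list members. Markers were matched on probe IDs. Alternatives were 2 centrings, the other reading, 2-fold, 4-array models and each array left out.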

Additional observations from a re-analysis of the deposited data

How the results depend on the processing

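The number of probes that limma called over both time points was 0 as deposited, 2 centred on the miRNA medians, 3 in the already turned reading and 0 to 94 with 1 array left out. The interaction of Foxp3 and time called 0, and 2 in the already turned reading. The 6 probes were not among these calls, except 5 of them without the 72 h Foxp3-Cy5 array. At 72 h, 7.6% of probes passed 1.5-fold, 4.68% centred on the miRNA medians, 56.1% already turned, 0.585% at 2-fold and 55% to 72.5% with 1 array left out. Of the 6, 0 passed as deposited, 5 already turned and 4 to 5 with 1 array left out. With 1 array left, the rule of 1 sign always holds, here and at 96 h, so those counts rest on the fold alone. At 72 h the single arrays also disagreed in direction. The 5 that passed without the Foxp3-Cy5 array were likely higher, and the 4 without the Foxp3-Cy3 array likely lower. At 96 h, 51.5% of probes passed, 33.9% already turned, 28.7% at 2-fold and 56.7% to 77.8% with 1 array left out. Of the 6, all passed as deposited, 3 centred on the miRNA medians, 0 already turned and 4 to 5 with 1 array left out. Between the time points, 12 probes differed with no overlap, 41 centred on the miRNA medians, 71 centred on U6 and tRNA and 116 already turned. Of the 6, these counts were 1, 2, 5 and 4, and 0 at 2-fold. Means over both time points changed sign in the already turned reading for 1org-126 (-0.24), 1org-143 (-0.10), 1org-145 (-0.14) and 2org-199a (-1.02), and that of 2org-199a ran from -0.35 to 1.39 with 1 array left out. The 96 h mean of 2org-199a was -0.30 already turned. The cause was not tested. The likeness rank of 1org-126 from 1org-126* was 8, and 25 without the 96 h Foxp3-Cy5 array; the other partner ranks, in both directions, stayed within 1.5 times under the alternatives run. Replicate numbers here follow dye orientation and pair no cultures.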
